A study of Solanum chacoense with 24 samples.

Results

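The 100 genes whose read counts differed most between replicate leaf pools of Solanum chacoense EE501F2_093 were examined. They were chosen by their values in that genotype. Counts were scaled to 1000000 reads on genes per library (CPM), and genes with a mean of at least 5 CPM over its 12 libraries were kept, 14274 of 32917 identifiers. The replicate difference of a gene is the difference of log2(CPM + 1) between the 2 libraries of a group, and the 100 genes with the largest mean absolute difference over 6 groups are called members. The questions were whether the members differ together and whether they also differ between replicates of USDA8380-1, the other genotype, whose libraries had no part in the choice.

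Solanum chacoense is a wild relative of the potato, and its leaves are food for the Colorado potato beetle. Plants of this family keep defences in the leaf at all times, such as glycoalkaloids, and add others after wounding, such as proteinase inhibitors under the control of the hormone jasmonate. The expression of wound-induced genes is known to differ from leaf to leaf with leaf age and wounding. The identifiers carry no gene names in the files, so no member is assigned a product, and markers of leaf cells could not be checked.

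Each genotype had 6 groups of 2 libraries: control cages without beetles and cages that received 50 adult beetles, each harvested at 0, 24 and 48 h. Leaves of 0 h were taken just before the beetles, so none of the 0 h groups had met them. Per the labels' protocols, 6 plants of 15 weeks per genotype were kept at 2 per cage, with 2 beetle cages and 1 control cage, and every library was a pool of leaf tissue prepared as a biological replicate. The plants of a genotype were raised from in vitro plantlets. All control pools of a genotype thus came from the same cage. The labels do not assign plants or cages to libraries, so arm and cage cannot be told apart, and p-values measure the spread between these pools only. In bulk leaf tissue, fewer cells of a type and less RNA per cell cannot be told apart either.

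Total counts on genes lay between 25050119 and 51999317 in 23 libraries and at 2114184 in USDA8380-1 beetle 0 h replicate 3. That library and USDA8380-1 control 24 h replicate 2 stood apart from the other USDA8380-1 libraries over all genes. The main values on replicate differences in USDA8380-1 are given with and without them. Tests between groups are given without them only in part. Chromosomes are read from the number that follows DM in an identifier.

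The values that chose the members are a description and were not tested. Their mean absolute replicate difference ran from 1.77 to 3.55 with a median of 2.05, a 4.15-fold gap between replicates on the CPM + 1 scale. The median over all kept genes was 0.326, or 1.25-fold. No step in value separated the members from the genes below them, as the last members held 1.773 and 1.771 and the next genes down 1.766 and 1.766. The members were not rare transcripts, with a median of 49.0 CPM and a range from 5.08 to 10041 CPM in EE501F2_093. Of the 600 differences, 575 exceeded 1.96 times their counting error, and the median of the smaller count of a pair was 350.5. Counting errors and intervals here cover counting only.

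Large differences recurred over the groups. A difference of at least 1 was present in 4 or more groups for 81 members and in all 6 groups for 10. The group of largest difference gave a median of 35.2% of a member's sum, and over 50% for 8 members. Without the controls of 48 h, 61 of the 100 were chosen again, so 39 owed their place to that group. Replicate numbers did not fix a direction, since 7 members were higher in the same replicate number in all 6 groups, against a background of 4.83% of kept genes.

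The largest differences fell in the beetle-free pools of 48 h. There 93 members were lower in replicate 1 than in replicate 2, with a median absolute difference of 4.12 (17.3-fold), against 0.277 for all kept genes. Replicate 1 of that group held 57 members at their lowest level among the 12 EE501F2_093 libraries, and this group held the largest difference of 64 members. The medians of the other groups were 1.83 in controls at 0 h, 1.18 in controls at 24 h, 0.658 in the beetle arm at 0 h, 2.04 at 24 h with beetles and 2.34 at 48 h with beetles. Over all kept genes these medians lay between 0.240 and 0.389. The beetle arm before beetles had the smallest member differences, and both pools of controls at 0 h, equally untouched, differed more.

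Members took a changing share of the leaf's messages. At 0 h the 4 EE501F2_093 libraries spent 0.536% to 1.33% of their counts on the 100 genes. At 24 and 48 h the share ran from 0.240% in control 48 h replicate 1 to 14.1% in beetle 48 h replicate 2, with a median of 5.17% over 8 libraries. The replicate of that low control pool held 5.69%. In USDA8380-1 the share was 1.74% to 3.80% at 0 h and 2.90% to 12.7% later, with a median of 8.50%. The lowest later value was that of control 24 h replicate 2. The 5 most abundant members held 54.4% of the summed member CPM in EE501F2_093, so the share follows few genes.

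**Figure D1:**
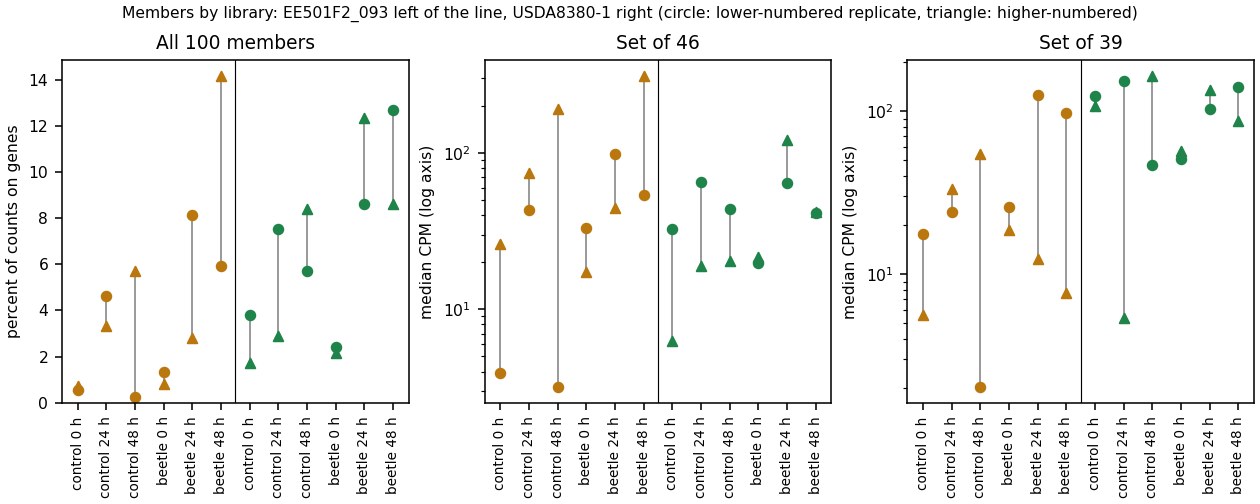
Share of counts taken by the 100 members (left, percent) and median CPM of their 2 main sets (middle and right, log axes) in each of the 24 libraries. Each symbol is a library, grey lines join the replicates of a group, and the gap in EE501F2_093 controls at 48 h spans 0.240% to 5.69% of counts.

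Soltu.DM.08G001610.1, on chromosome 8, had the largest mean difference of all, 3.55. Its levels in EE501F2_093 were 28.1 and 1.68 CPM in controls at 0 h, 12.9 and 2.09 CPM at 24 h and 0.172 and 4.21 CPM at 48 h, in replicates 1 and 2. In the beetle arm they were 366.0 and 168.8 CPM at 0 h, 1740 and 23.5 CPM at 24 h, and 399.6 and 4.08 CPM at 48 h. The beetle arm was thus far above the controls before any beetle was placed, and a single pool of 24 h held the highest level. In USDA8380-1 its lowest, median and highest levels were 0.286, 17.2 and 248.0 CPM.

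Soltu.DM.04G026390.1, on chromosome 4, followed with a mean difference of 3.41. In controls its replicates stood at 5.09 and 66.5 CPM at 0 h, 9.58 and 48.8 CPM at 24 h, and 0.860 and 175.4 CPM at 48 h. In the beetle arm they stood at 89.6 and 48.7 CPM, 50.4 and 2.96 CPM, and 11.5 and 152.4 CPM. Replicate 2 was the higher in every control group, and the beetle arm showed both orders, so the ranges of the arms overlapped at every hour.

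The members did not form a single bloc. The cosine between the 6 signed differences of a pair of members is 1 where their replicates differ in the same proportions and 0 where the patterns are unrelated. Its median over all pairs of members was 0.479 in EE501F2_093, against 0.102 over kept genes, and a leading component held 52.5% of the summed squared differences of the members, against 32.2% for kept genes. Grouping by average linkage at a cosine distance of 0.5, a setting chosen after seeing the data, gave a set of 46 members, a set of 39 and 4 small sets of 7, 4, 2 and 2. The median cosine was 0.809 within the set of 46, 0.846 within the set of 39, and 0.340 between them. These values in EE501F2_093 describe how the sets were built.

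The set of 46 was the more abundant in this genotype, at a median of 80.1 CPM per gene. Its members were lower in replicate 1 than in replicate 2 of controls at 0 h for 44 of 46, of controls at 48 h for all 46, and of the beetle arm at 48 h for 45 of 46. The median differences in these groups were -2.0, -4.70 and -2.34. In the beetle arm at 24 h the order turned, with 39 of 46 higher in replicate 1 and a median of 1.04. The median level of the set was 3.18 CPM in control 48 h replicate 1 and 191.6 CPM in its replicate, and it peaked at 311.0 CPM in beetle 48 h replicate 2.

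The set of 39, at a median of 42.2 CPM, shared the low control pool of 48 h with the set of 46 and parted from it in controls at 0 h (29 of 39 higher in replicate 1, median 1.36) and in the beetle arm at 48 h. All 39 were lower in replicate 1 of controls at 48 h (median -4.14), and all 39 were higher in replicate 1 of the beetle arm at 24 h (2.92) and at 48 h (2.85). Its median level was 125.4 CPM in beetle 24 h replicate 1 and 12.3 CPM in replicate 2, and 97.6 and 7.69 CPM in the pools of beetle 48 h. Beetle 48 h replicate 2 was thus the highest library for the set of 46 and among the lowest for the set of 39.

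Without the 48 h controls the median cosine within the 46 was 0.668 and within the 39 it was 0.842. Over all pairs of the same 100 members it was 0.135 without that group, against 0.121 for kept genes, and among members chosen again without it the value was 0.0476. The co-movement of the list as a whole was thus near the background without the 48 h controls. The values within both main sets are descriptions, since the other groups also served to build the sets.

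The third set, of 7 members, shared the order of the set of 46 in controls at 0 h and in the beetle arm at 48 h and opposed both main sets in the beetle arm at 24 h. All 7 were lower in replicate 1 of controls at 0 h, with a median difference of -3.86, and of the beetle arm at 24 h (-3.08) and 48 h (-1.77). Its median level was 2.14 and 38.8 CPM in the pools of controls at 0 h and 1.76 and 41.6 CPM in those of the beetle arm at 24 h.

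**Figure D2:**
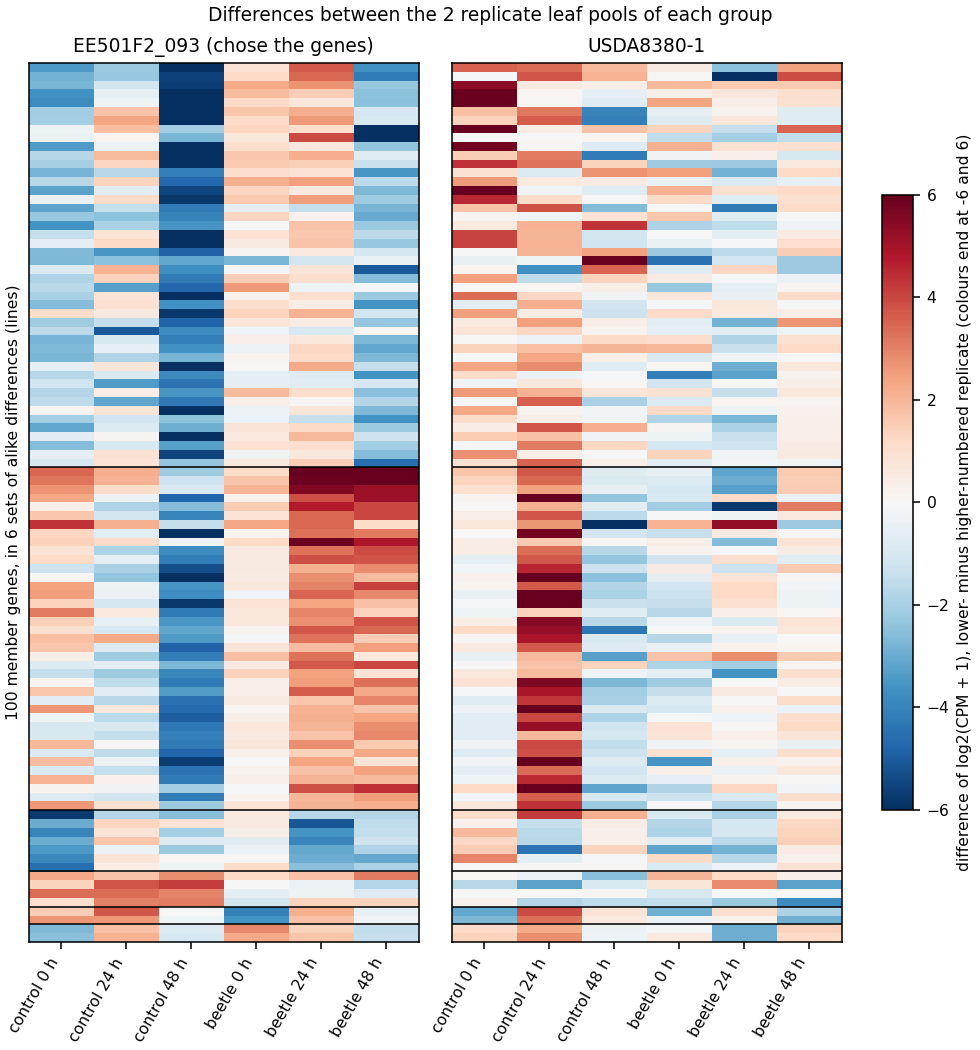
Signed replicate differences of log2(CPM + 1) for the 100 members (rows, grouped by set with the sets of 46 and 39 on top, and by rank within a set) in the 6 groups of EE501F2_093 (left) and USDA8380-1 (right). Red is higher in the lower-numbered replicate and blue in the higher-numbered, and the set of 39 shows a common red column in USDA8380-1 controls at 24 h, with a median of 3.97.

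In USDA8380-1 the set of 39 moved together again and the set of 46 did so less. The median cosine over all pairs of members was 0.323, against 0.0826 over kept genes, and the leading component held 47.7% against 33.6%. Within the 39 the median cosine was 0.833, and within the 46 it was 0.324. The 39 were all lower in USDA8380-1 control 24 h replicate 2 than in replicate 1, at median levels of 5.37 and 152.6 CPM. That library is one of those that stood apart. Without the groups of both libraries that stood apart, the medians were 0.640 within the 39 (0.507 without the group of control 24 h alone), 0.406 within the 46 and -0.03 between them, and 0.195 over all members against 0.139 over kept genes. The co-movement of the whole list in USDA8380-1 was then close to the background, while pairs within either main set stayed above it.

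The likeness of a pair carried over from genotype to genotype. The 1064 member pairs with a cosine above 0.8 in EE501F2_093 had a median cosine of 0.698 in USDA8380-1, and 0.651 without the groups of both libraries that stood apart. The 1056 pairs with a cosine of 0 or less in EE501F2_093 had a median of 0.0189 there. The pairs share genes and all pairs share libraries, so these figures are descriptions.

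Many members lie next to each other on the chromosomes, a feature the choice did not use. Within 10 places of another member in the order of the identifiers stood 40 members, against 25 of the next 100 genes down the ranking. They formed 13 runs, of which 12 fell wholly within a set. The 7 runs of 3 or more held 28 members: 5 and 3 genes on chromosome 3, 3 on chromosome 6, 3 and 4 on chromosome 7, 4 on chromosome 8 and 6 on chromosome 9. Chromosome 9 held 13 members, or 1.24% of its kept genes, and chromosomes 1 and 4 held 0.323% each. Chromosomes 7, 8 and 11 were close to chromosome 9, at 1.06%, 1.06% and 1.12%. Over the genome, 100 of 14274 kept genes were members. The runs weigh on these shares, and the spread over chromosomes was not tested.

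Neighbouring members differed in nearly the same proportions in both genotypes. The 27 pairs of successive members within a run had a median cosine of 0.973 in EE501F2_093 and 0.957 in USDA8380-1, against 0.169 and 0.157 for 13994 pairs of neighbouring kept genes. Over all pairs of members the medians were 0.479 and 0.323. Within the set of 46 they were 0.809 and 0.324, and within the set of 39 they were 0.846 and 0.833. The choice of members thus accounts for an unknown part of the gap to kept genes, and members apart on the chromosomes were not set beside neighbours. The run of 3 on chromosome 6 reached 0.995 and 0.991, and the run of 5 on chromosome 3 reached 0.986 and 0.965. The run of 6 on chromosome 9 had 0.952 and 0.880, and its genes averaged a median of 725.1 CPM in EE501F2_093 and 1406 CPM in USDA8380-1. A run of 3 on chromosome 7 moved together in EE501F2_093 (0.947) and less so in USDA8380-1 (0.279), where its genes were at a median of 1.59 CPM. Neighbouring copies that are near-identical in sequence could share reads, so single genes of a run are uncertain, and the part of shared reads in this likeness was not tested.

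Most members also varied between the pools of USDA8380-1. The mean absolute replicate difference there was at least 1 for 81 of the 100 members, against a background of 7.45% of the kept genes. Its median was 1.49 over the members (2.81-fold) and 0.479 over kept genes. The median member stood at the 98.5th percentile of kept genes, and 86 members lay above the 90th. When the kept genes were split into 10 classes by level in USDA8380-1, 79 members lay above the 90th percentile of their class. The spread ran from 0.185 to 3.32, and 3 members lay in the lower part of the distribution, below the 50th percentile.

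The recurrence was weaker without the libraries that stood apart and remained. Without their groups, 58 members had a mean difference of at least 1, against a background of 5.63%, and the median was 1.13 against 0.412. Without the group of USDA8380-1 control 24 h alone the count was 57, against 5.39% of kept genes, so this group carried much of the change. Thinning all USDA8380-1 libraries to the depth of the shallowest gave 84 members, against a background that rose to 9.42% of kept genes. Of the 82 members with at least 5 CPM in both genotypes, 74 reached 1, against 7.43% of such genes. Of the 18 with less in USDA8380-1, 7 did, and the share of kept genes with less was not counted.

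The rank of a gene was less stable than its class. Among the 100 genes of largest replicate difference in USDA8380-1 were 32 members, and among the 500 largest were 65. The difference was larger in EE501F2_093 for 90 members, the genotype in which they were chosen to be large. Across genes, Spearman's rho between the genotypes was 0.557 over kept genes and 0.386 over members. The next 100 genes down the ranking gave 72 with at least 1 in USDA8380-1 and a median of 1.20, so the genes just below the members behaved much like them.

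The same spread was seen in the count model. The biological coefficient of variation, the relative spread between replicates beyond counting, had a median of 0.766 over the 99 members with a value in USDA8380-1 and 0.329 over kept genes. Without both libraries that stood apart it was 0.658 and 0.283, and 80 members were above the 90th percentile of kept genes. In EE501F2_093, where the choice was made, the medians were 0.897 and 0.233. From its lowest to its highest library a member spanned a median of 44.6-fold in EE501F2_093 and 40.9-fold in USDA8380-1 on the CPM + 1 scale, against 1.96-fold and 3.01-fold for kept genes. The spread between replicates within groups made up a median of 54.1% of a member's variance in USDA8380-1 and 45.0% of a kept gene's. In EE501F2_093 these medians were 63.6% and 54.1%. The share expected without differences between groups was not computed, so no excess is read from these values.

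**Figure D3:**
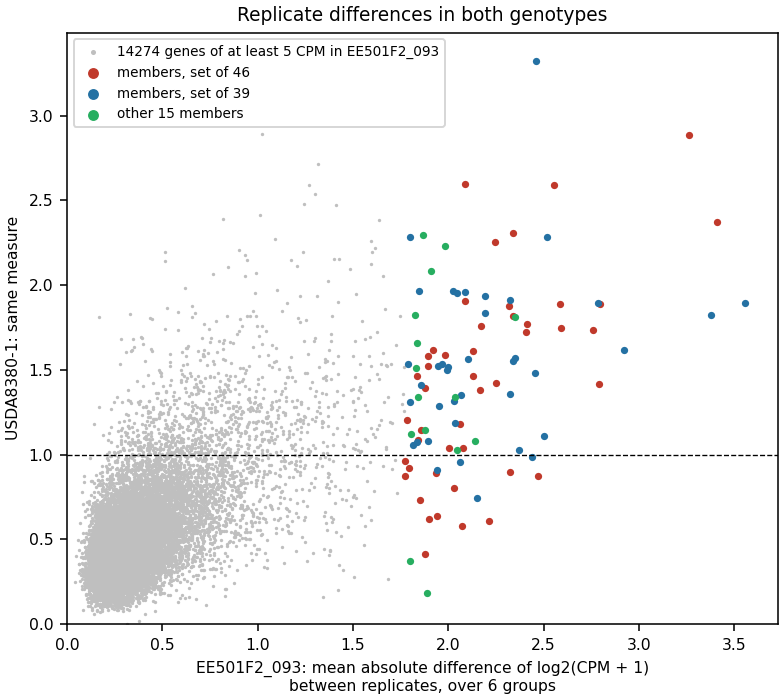
Mean absolute replicate difference over 6 groups in EE501F2_093 (x axis) and USDA8380-1 (y axis), both in units of log2(CPM + 1), for the 14274 kept genes (grey) and the 100 members (coloured by set). The members lie beyond 1.77 on the x axis by choice, and 81 of them lie at or above the dashed line at 1 on the y axis.

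The members of largest spread in USDA8380-1 switched between high and very low levels. Soltu.DM.03G030310.1, of the set of 39, had the largest mean difference of all kept genes there, 3.32. Its replicates stood at 165.4 and 101.3 CPM in controls at 0 h, 168.7 and 26.0 CPM at 24 h and 1.79 and 354.7 CPM at 48 h. In the beetle arm they stood at 161.4 and 36.9 CPM at 0 h, 109.9 and 1.79 CPM at 24 h and 46.6 and 216.4 CPM at 48 h. In EE501F2_093 it ran from 0.275 to 30.7 CPM with a median of 6.77 CPM, below most USDA8380-1 libraries.

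Soltu.DM.10G003720.1, of the set of 46, followed with 2.89. In USDA8380-1 it lay between 0.287 and 21.2 CPM in 11 libraries and at 597.6 CPM in beetle 24 h replicate 2, whose replicate held 2.61 CPM. In EE501F2_093 it rose above 50 CPM in control 48 h replicate 2 (56.9 CPM), beetle 24 h replicate 1 (57.8 CPM) and beetle 48 h replicate 2 (96.8 CPM), and the replicates of these pools held 0.206, 4.38 and 4.31 CPM. High values of this gene thus occurred with and without beetles, each time in 1 pool of a pair.

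At the other end, 2 members on chromosome 9 were the steadiest in USDA8380-1 among members of at least 5 CPM there. Soltu.DM.09G025950.2, with a mean difference of 0.733, held 245.0 and 48.6 CPM in controls at 0 h, 322.1 and 283.9 CPM at 24 h and 380.6 and 424.3 CPM at 48 h, and 434.6 to 522.4 CPM in the beetle arm at 48 h. In EE501F2_093 its 48 h controls held 0.619 and 144.0 CPM, and its other libraries ran from 2.12 to 359.0 CPM. Soltu.DM.09G025070.1, with 0.637, ran from 10.2 to 109.6 CPM in USDA8380-1 and from 10.4 to 379.2 CPM in EE501F2_093. In EE501F2_093 both its extremes were the pools of controls at 24 h.

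**Figure D4:**
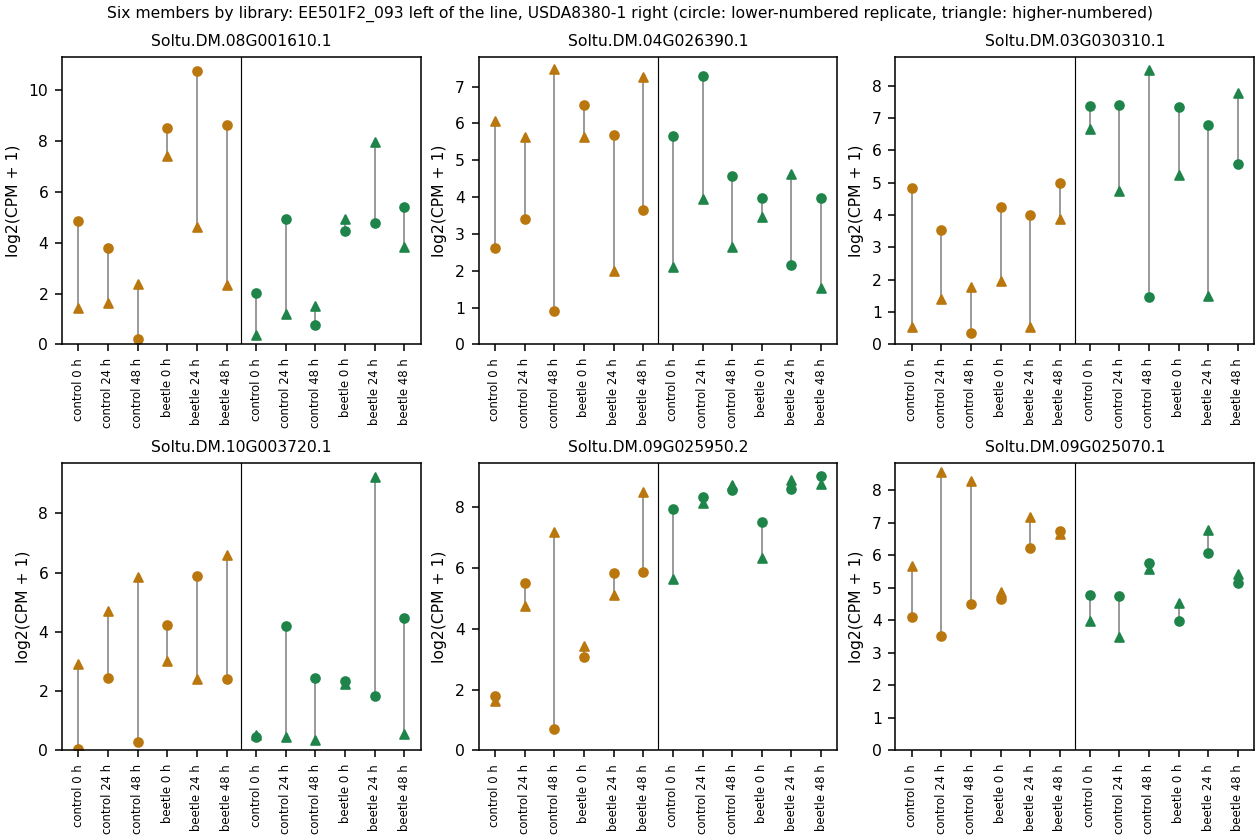
Levels of 6 members, as log2(CPM + 1), in the 24 libraries, with grey lines joining the replicates of a group. Top left and middle are the 2 members of largest replicate difference in EE501F2_093, then come the 2 of largest and the 2 of smallest difference in USDA8380-1, and the largest gaps of a gene fall in different groups.

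Many members differed in level between the genotypes. With the quasi-likelihood test of edgeR on all 24 libraries, averaged over the 6 groups, 69 of 100 members passed an adjusted p of 0.05, against a background of 34.9% of kept genes. Of these, 42 were higher in USDA8380-1, against a background of 15.0%, and 27 were lower, against 19.9%. The level minimum was set in EE501F2_093 alone, which favours genes that are lower in USDA8380-1, so the count of lower members is no result. The EE501F2_093 libraries that chose the members are also part of this test, so neither count is independent of the choice. Among the 82 members with at least 5 CPM in both genotypes, a restriction added after seeing the data, 42 were higher, against 15.8% of such genes, and 11 were lower, against 17.0%. With a replicate block in the fit, 46 members passed, 26 higher and 20 lower. The same fit called 3822 of 14274 kept genes, 1622 of them higher. In the fit without a block, the median absolute log2 fold change was 1.96 over members and 0.26 over kept genes. All 100 members passed the filter on low counts in the fit of all 24 libraries.

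The sets had different balances. In the set of 39, 27 were higher in USDA8380-1 and 2 lower, with a median log2 fold change of 1.77, and in the set of 46, 14 were higher and 19 lower, with a median of -0.51. In the third set, 5 of 7 were lower and none was higher, with a median of -2.86. The limit on lower calls and the link to the choice hold for these counts too. Whether the sets differ was not tested, since they were formed after seeing the data.

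Soltu.DM.11G013160.1, of the set of 46, had the largest rise. It held a lowest, median and highest level of 0, 0.870 and 692.2 CPM in EE501F2_093, and of 0.891, 40.3 and 668.1 CPM in USDA8380-1, with overlap at both ends. Apart from beetle 48 h replicate 2 the EE501F2_093 pools held at most 6.97 CPM, and apart from control 0 h replicate 3 the USDA8380-1 pools held at least 14.2 CPM. Its log2 fold change was 5.18 (SE 1.05, adjusted p = 0.00104, edgeR). Soltu.DM.04G035610.1, of the set of 39, held 0.241, 6.61 and 97.6 CPM in EE501F2_093 and 24.8, 249.9 and 624.6 CPM in USDA8380-1. Its fold change was 4.13 (SE 0.69, adjusted p = 0.000201, edgeR), with the highest EE501F2_093 pools above the lowest USDA8380-1 pools.

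Soltu.DM.04G028860.4 showed the largest fall and a pattern of its own. It reached 5 CPM in EE501F2_093 only, so its fall is a description. In EE501F2_093 it had 2, 0 and 1 counts in replicate 2 of the controls at 0, 24 and 48 h, and 152 to 317 counts in the other 9 libraries, or 4.48 to 9.91 CPM. In USDA8380-1 it had 6 counts in all, with 8 libraries at 0. The fitted log2 fold change was -8.43 and rests on these few USDA8380-1 counts. The labels do not say whether the 3 control pools of replicate 2 came from the same plant.

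Soltu.DM.11G004680.1, of the set of 46, held 16.4 to 471.0 CPM in EE501F2_093 with a median of 104.8 CPM. In USDA8380-1 it was under 1.2 CPM in 10 libraries, at 12.0 CPM in beetle 24 h replicate 2 and at 19.4 CPM in beetle 0 h replicate 3. The latter is the shallow library, with 41 counts of the gene. The fitted log2 fold change was -7.60, a description for the same reason, and the genotypes overlapped in the shallow library alone.

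With edgeR, no beetle effect on a member could be called. In EE501F2_093, 0 members passed at 24 h and 0 at 48 h, against a background of 0% of kept genes at either hour, with 9 and 9 members at an unadjusted p under 0.05 in edgeR (1.96% and 2.23% of kept genes) and 0 and 1 called by DESeq2 (0% and 0.0210%). In USDA8380-1 the counts were 0 and 0, against 0% again, with 9 and 4 members at an unadjusted p under 0.05 (12.8% and 5.02% of kept genes) and 1 and 1 called by DESeq2 (0.848% and 0.0771%). In the fit of all 24 libraries, shares of members at an unadjusted p under 0.05 were thus above those of kept genes in EE501F2_093 and below them in USDA8380-1. The latter did not hold in edgeR fits of the compared libraries alone. There USDA8380-1 had 15 of 97 members against 227 of 14225 kept genes at 24 h, and 19 of 91 against 583 of 14214 at 48 h. Nor did it hold with a replicate block, with 12 and 5 members, against 1638 and 572 of 14274 kept genes. In the fit of all 24 libraries the median SE of a member's log2 fold change was 1.46 to 1.52, against 0.36 for kept genes. Only very large changes could thus have passed. In that fit the log2 fold change was above 0 for 54 and 80 members in EE501F2_093 at 24 and 48 h, against 48.1% and 47.1% of kept genes. In USDA8380-1 it was above 0 for 74 and 57, against 49.6% and 51.7%. Without both libraries that stood apart, 61 members were above 0 in USDA8380-1 at 24 h, against 59.9% of kept genes. At 48 h in EE501F2_093 the comparison holds the low control pool, replicate 1, in its baseline.

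A comparison over both genotypes and both hours, added after seeing the data, gave 0 called members too, against a background of 0.0140% of kept genes. There 22 members had an unadjusted p under 0.05 in edgeR, against 13.6% of kept genes. DESeq2 called 8, against 1.60%, and 75 members had a fold change above 0, against 49.2% of kept genes. The edgeR count was 9 without USDA8380-1 control 24 h replicate 1 (5.58% of kept genes) and 7 without USDA8380-1 beetle 24 h replicate 1 (0.960%). Without control 24 h replicate 1, the only 24 h control of USDA8380-1 was replicate 2, a library that stood apart. The count of 9 is thus not read as a beetle effect. Soltu.DM.08G001610.1 had a log2 fold change of 5.37 (SE 1.18, adjusted p = 0.148, edgeR) in this comparison, with the beetle arm of EE501F2_093 already high at 0 h.

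The controls of USDA8380-1, which were not used to choose the members, gave no call over time. From 0 to 24 h, 0 members passed, against a background of 0.182%, with 12 at an unadjusted p under 0.05 in edgeR (25.3% of kept genes) and 5 called by DESeq2 (10.7%). From 0 to 48 h, 0 passed, against 1.06%, with 9 at an unadjusted p under 0.05 (22.7%) and 6 called by DESeq2 (9.08%). In each of these counts the members' share was below that of kept genes. In edgeR fits of the compared libraries alone the order turned. There 14 of 91 members had an unadjusted p under 0.05 from 0 to 24 h, against 1540 of 14207 kept genes. From 0 to 48 h it was 25 of 88, against 2712 of 14202, and 0 members were called in either fit. Leaving out control 24 h replicate 1 left replicate 2, a library that stood apart, as the only 24 h control. Calls of that fit are thus not read as changes over time. The edgeR count at 24 h was 2 without control 24 h replicate 1, against 17.8% of kept genes. It was 1 without control 48 h replicate 1 (1.13%) or replicate 3 (1.30%), and at 48 h it was 1 without control 48 h replicate 3 (3.65%).

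Pooled over genotypes and arms, a part of the set of 46 was higher at the later harvests. In this comparison, also added after seeing the data, 17 members passed for 24 and 48 h against 0 h, against a background of 9.34% of kept genes. Of these, 16 rose, against 4.25%, and 1 fell, against 5.09%. All 16 belong to the set of 46, and no gene of the set of 39 passed. The log2 fold change was above 0 for 81 members, against 58.9% of kept genes, with medians of 2.31 in the set of 46 and 1.11 in the set of 39. The libraries of a genotype share plants over time, and beetles were present in the later pools of the beetle arm, so hour and beetles are mixed in part. The EE501F2_093 libraries that chose the members are part of this comparison too.

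Soltu.DM.09G025900.1 rose most. In EE501F2_093 its pools held 18.3 to 48.9 CPM at 0 h, and 15.3 CPM in control 48 h replicate 1 against 260.2 to 5674 CPM in the other later pools. In USDA8380-1 they held 13.9 to 284.7 CPM at 0 h and 450.1 to 4750 CPM later. Its log2 fold change was 4.39 (SE 0.75, adjusted p = 0.00360, edgeR), and the low control pool of 48 h was the only later pool that did not lie above all 0 h pools of its own genotype. Its neighbour in the run of 6 on chromosome 9, Soltu.DM.09G025880.1, held 29.4 to 160.5 CPM at 0 h in EE501F2_093, and 39.03 CPM in that same pool against 808.4 to 12368 CPM in the other later pools. In USDA8380-1 it went from 63.6 to 1072 CPM at 0 h to 1312 to 11915 CPM later, with a log2 fold change of 4.30 (SE 0.74, adjusted p = 0.00389, edgeR).

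The member that fell was Soltu.DM.03G004830.1, of the set of 4. Its levels were 363.6 to 1940 CPM at 0 h and 51.5 to 806.4 CPM later in EE501F2_093, and 406.8 to 4342 CPM and 79.1 to 803.4 CPM in USDA8380-1. These ranges overlapped in both genotypes. The log2 fold change was -1.95 (SE 0.48, adjusted p = 0.0233, edgeR), and the call was lost without USDA8380-1 control 0 h replicate 2 (0.0535), USDA8380-1 beetle 0 h replicate 2 (0.0807), EE501F2_093 control 0 h replicate 1 (0.114) or EE501F2_093 beetle 0 h replicate 1 (0.0793).

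The number of calls over time depended on single libraries. It was 26 without EE501F2_093 control 48 h replicate 1, the pool in which most members were lowest, against 7.99% of kept genes. It was 11 without USDA8380-1 control 0 h replicate 3 (5.22%), beetle 0 h replicate 2 (7.08%) or beetle 0 h replicate 3 (7.36%). It was 8 without EE501F2_093 control 0 h replicate 1 (3.55%) and 9 without beetle 0 h replicate 1 (4.48%) or replicate 2 (4.58%). DESeq2 called 33 members, against 15.7%. Above the background share in each of these fits, the count still followed single 0 h pools and the low control pool of 48 h.

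**Figure D5:**
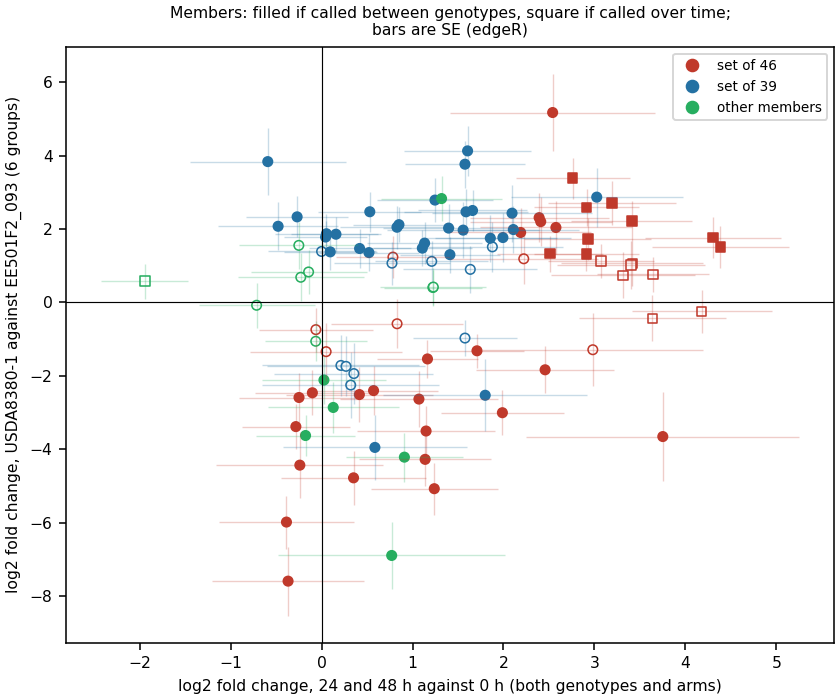
Log2 fold changes of 98 members over time (x axis, 24 and 48 h against 0 h) and between genotypes (y axis, USDA8380-1 against EE501F2_093), with bars of SE from edgeR and colours by set. The 2 members left out had an SE of 10 or more, filled symbols mark calls between genotypes, and squares mark the 17 calls over time, 16 of them in the set of 46 and to the right of 0.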

How the data were processed

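The authors deposited raw counts of reads per gene for 24 libraries, made from stranded mRNA libraries read as single reads of 50 nt, per the labels' protocols. Trimmomatic 0.35, the aligner STAR 2.7.3a, Picard and the counter HTSeq were used, per the submitters' processing notes, and no source used here gives a genome build or annotation. The 5 summary lines of HTSeq were kept out of totals, and reads not assigned to a gene made up a median of 9.99% (7.76% to 17.4%) of reads.

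CPM were computed from the totals on genes, with a pseudocount of 1 on the log2 scale. Members and lists were chosen with earlier results of these data known. Fold changes came from edgeR 4.0.16 in R 4.3.3 (quasi-likelihood test, TMM scaling, filterByExpr, 12 groups of all 24 libraries, Benjamini-Hochberg adjustment over 24870 genes), and the steps were tested on simulated data. A member was called at an adjusted p under 0.05. Members are named by a rule: the 2 of largest replicate difference in EE501F2_093, the 2 largest and 2 smallest in USDA8380-1 among those of at least 5 CPM there, and the 2 largest called rises and falls per comparison. Lists of pathways and leaf markers were not tested for want of gene names.

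Alternatives were other pseudocounts, level minimums, scalings and member numbers, the median in place of the mean, thinned counts, no filter on low counts, fits of the compared libraries alone, DESeq2 1.42.0, a replicate block and leaving out libraries. Same-numbered libraries of 19 pairs of groups correlated in their deviations from the group means between -0.45 and 0.42, above 0.1 for 9 pairs, so the numbers were not taken to pair the libraries.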

Additional observations from a re-analysis of the deposited data

Results flagged for a closer look

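All named members were looked at for opposite beetle directions in the genotypes, at 24 and at 48 h. In 2 of them, every 24 h beetle library lay below every 24 h control library in EE501F2_093 and above every one in USDA8380-1. How often kept genes in general do so was not counted. The difference between the genotypes was not tested in either case, and a case of 2 against 2 libraries in each genotype is a thin base. Soltu.DM.11G013160.1 held 6.97 and 1.27 CPM in EE501F2_093 controls and 1.15 and 0.0237 CPM with beetles, a log2 fold change of -2.81. In USDA8380-1 it held 30.4 and 22.8 CPM in controls and 250.4 and 668.1 CPM with beetles, a log2 fold change of 4.27. Soltu.DM.09G025880.1 held 4568 and 2559 CPM in EE501F2_093 controls and 2490 and 808.4 CPM with beetles, a log2 fold change of -1.11. In USDA8380-1 it held 5366 and 1312 CPM in controls and 7000 and 10592 CPM with beetles, a log2 fold change of 1.60. USDA8380-1 control 24 h replicate 2, the lowest of these USDA8380-1 libraries for both genes, is one of the libraries that stood apart.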

How the results depend on the processing

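The share of members with a replicate difference of at least 1 in USDA8380-1 (81%) ran from 57 to 84 when single libraries were left out with their group, and from 58 to 86 under the other alternatives. Choosing the members again without a group kept 61 to 93 of the 100. The median cosine of members ran from 0.145 to 0.377 in USDA8380-1 and from 0.0476 to 0.588 in EE501F2_093 when libraries were left out. It was 0.195 in USDA8380-1 without the groups of both libraries that stood apart, and in EE501F2_093 it was 0.300 with 200 members and 0.135 for the same members without the controls of 48 h, a setting added after seeing the data. The genotype count of 69 ran from 52 to 75 without single libraries and was 46 with a replicate block, which left the count over time at 17 and the others at 0. DESeq2 called 1 member for beetles in EE501F2_093 at 48 h, 1 in USDA8380-1 at 24 h and 1 at 48 h, 5 and 6 members in USDA8380-1 controls at 24 and 48 h, 8 in the pooled beetle comparison and 33 over time. Without a filter on low counts, edgeR called 1 member in USDA8380-1 controls at 24 h, beside 87 of 14274 kept genes. It called 2 in the pooled beetle comparison, beside 15 of 14274 kept genes. Leaving out libraries gave 0 to 2 calls in USDA8380-1 controls at 24 h, 0 to 1 at 48 h, 0 to 9 in the pooled beetle comparison and 8 to 26 over time. The 2 calls at 24 h and the 9 calls came from the fit without USDA8380-1 control 24 h replicate 1. That fit left replicate 2, which stood apart, alone in its group. A group reduced to 1 library was assumed to vary like the others. The causes were not tested. Of 203 alternative values of the 7 named fold changes, 197 kept direction and call, 6 lost the call and 0 reversed. Pools of 2 per group limit all calls on genes chosen for their spread.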
